A study of Homo sapiens with 2 samples.

Results

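SREBF1, SREBF2, SCAP, INSIG1 and INSIG2, the genes of the sterol-sensing switch of lipid synthesis, were read from an m6A map of Huh-7, an established human line grown from a hepatocellular carcinoma. They are 5 of the 25105 genes in the deposited gene table, taken by gene name, and their peaks are the 17 of the 49746 listed peaks that carry these names. The map rests on 1 library of fragments pulled down with an antibody to N6-methyladenosine (the IP) and 1 library of fragments from before the pull-down (the input), both from wild-type cells without treatment. No library has a replicate, so each value below is a description of this pair of libraries and no test of a condition was possible. The depth of both libraries is unknown, since the level is given as FPKM (fragments scaled to transcript length and to library size) and the peaks as folds. The extraction text speaks of adipose RNA, whereas the titles, the cell line label and the growth protocol name Huh-7. All 7 hepatocyte markers stood at 55.1 FPKM or more, and of 4 adipocyte markers PLIN1, at 0.0690 FPKM, was the highest and the others were not listed.

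SREBF1 and SREBF2 encode the sterol regulatory element-binding proteins (SREBPs), transcription factors made as precursors in the membrane of the endoplasmic reticulum. SREBP-2 chiefly drives cholesterol synthesis and uptake, and SREBP-1c, a product of SREBF1, fatty acid synthesis in the liver. SCAP escorts the precursors to the Golgi, where proteases release the active part, and when sterols are plentiful INSIG1 and INSIG2 hold SCAP and its cargo in the endoplasmic reticulum. INSIG1 and SREBF2 are themselves SREBP target genes, which closes a feedback loop. m6A is a methyl mark on adenosines inside mRNA, typically dense around the stop codon and in the 3' UTR, that reader proteins use to set the stability and translation of a transcript.

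The start-site windows of SREBF2 and INSIG1 are shown first because these genes carry the feedback loop and differ at that end in the peak list. The plus-strand peak of SREBF2 began at 41833179, just beyond the window shown. A minus-strand peak of the antisense RNA SREBF2-AS1, from 41832965 to 41833489, overlapped the window. INSIG1 had no peak near its start. Each window runs from 250 bases before to 50 after the RefSeq start (GRCh38.p14). Capitals mark the core of the sterol regulatory element (TCACCCCAC), an E-box form that SREBPs also bind (ATCACGTGA, here read on the other strand as TCACGTGAT) and the CCAAT box of their partner NF-Y (CCAAT, here as ATTGG).
SREBF2, chr22:41832855-41833154, plus strand: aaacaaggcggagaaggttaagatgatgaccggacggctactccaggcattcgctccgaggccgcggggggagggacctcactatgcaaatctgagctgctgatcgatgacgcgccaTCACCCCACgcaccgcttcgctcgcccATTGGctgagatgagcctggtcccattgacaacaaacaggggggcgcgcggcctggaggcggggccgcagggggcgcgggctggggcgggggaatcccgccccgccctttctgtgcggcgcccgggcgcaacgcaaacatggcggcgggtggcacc
INSIG1, chr7:155297628-155297927, plus strand: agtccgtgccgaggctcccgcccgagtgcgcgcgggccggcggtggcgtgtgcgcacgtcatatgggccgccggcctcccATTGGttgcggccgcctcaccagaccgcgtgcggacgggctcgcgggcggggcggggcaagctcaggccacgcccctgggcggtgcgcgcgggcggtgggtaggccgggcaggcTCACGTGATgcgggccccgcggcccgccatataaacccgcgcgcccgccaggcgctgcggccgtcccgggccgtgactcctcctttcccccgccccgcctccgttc

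Searched on both strands, the core element occurred in 0.430% of 35116 RefSeq windows, the E-box form in 0.268% and the CCAAT box in 34.6%. None of these motifs overlapped another in the windows shown. In SREBF2 the core element began 133 bases before the start site, and in INSIG1 the E-box form began 56 bases before it. The windows of SREBF1, SCAP and INSIG2 held none of the motifs. For SREBF1 only the window around the listed 5' end (chr17:17836937-17837236) was searched, so other start sites of that gene were not covered. A match is only a description of the letters in the window.

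The introns of both SREBF genes hold a microRNA of the miR-33 family, known to repress cholesterol export genes such as ABCA1. The mature forms, from RefSeq, are shown with the seed (bases 2 to 8) in capitals, because both share it and both lie among or beyond the peaks of their hosts.
hsa-miR-33b-5p (host SREBF1): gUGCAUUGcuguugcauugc
hsa-miR-33a-5p (host SREBF2): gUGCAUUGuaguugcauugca

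With hairpins placed on GRCh38.p14, 3 of the SREBF1 peaks lay on the 5' side of the miR-33b hairpin and 2 on its 3' side. All 4 SREBF2 peaks lay on the 5' side of the miR-33a hairpin. No peak lay over either hairpin. Neither microRNA gene was in the deposited gene table.

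Input levels fell into 1 high group and 1 low gene. INSIG1 stood highest at 31.6 FPKM, above 93.5% of the 10548 protein-coding genes at 1 FPKM or more. SREBF2 followed at 28.6 FPKM (above 92.5%), SREBF1 at 27.2 FPKM (91.9%) and SCAP at 26.3 FPKM (91.4%). INSIG2 stood at 5.36 FPKM, above 48.4% of coding genes and near their median of 5.58 FPKM. The ratio of INSIG1 to SCAP, the ends of the high group, was 1.20, and without replicates the order of these 4 neighbours cannot be told from error. INSIG1 stood 5.89 times as high as INSIG2. In a bulk library, fewer cells with a transcript and less of it per cell cannot be told apart.

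All 5 genes carried at least 1 listed peak, as did 96.2% of coding genes at 1 FPKM or more. SREBF1 had 5 peaks, SREBF2 and INSIG2 had 4 each, and SCAP and INSIG1 had 2 each, around a median of 3 peaks for coding genes with a peak. The fold, p and adjusted p of a peak are the authors' own values for IP over input. An approximate 95% interval was derived from each fold and its p, taking the p as a two-sided normal test of a fold of 1. It covers only the error that this p carries, and the peaks of 1 gene come from the same transcripts and are not replicates.

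**Figure D1:**
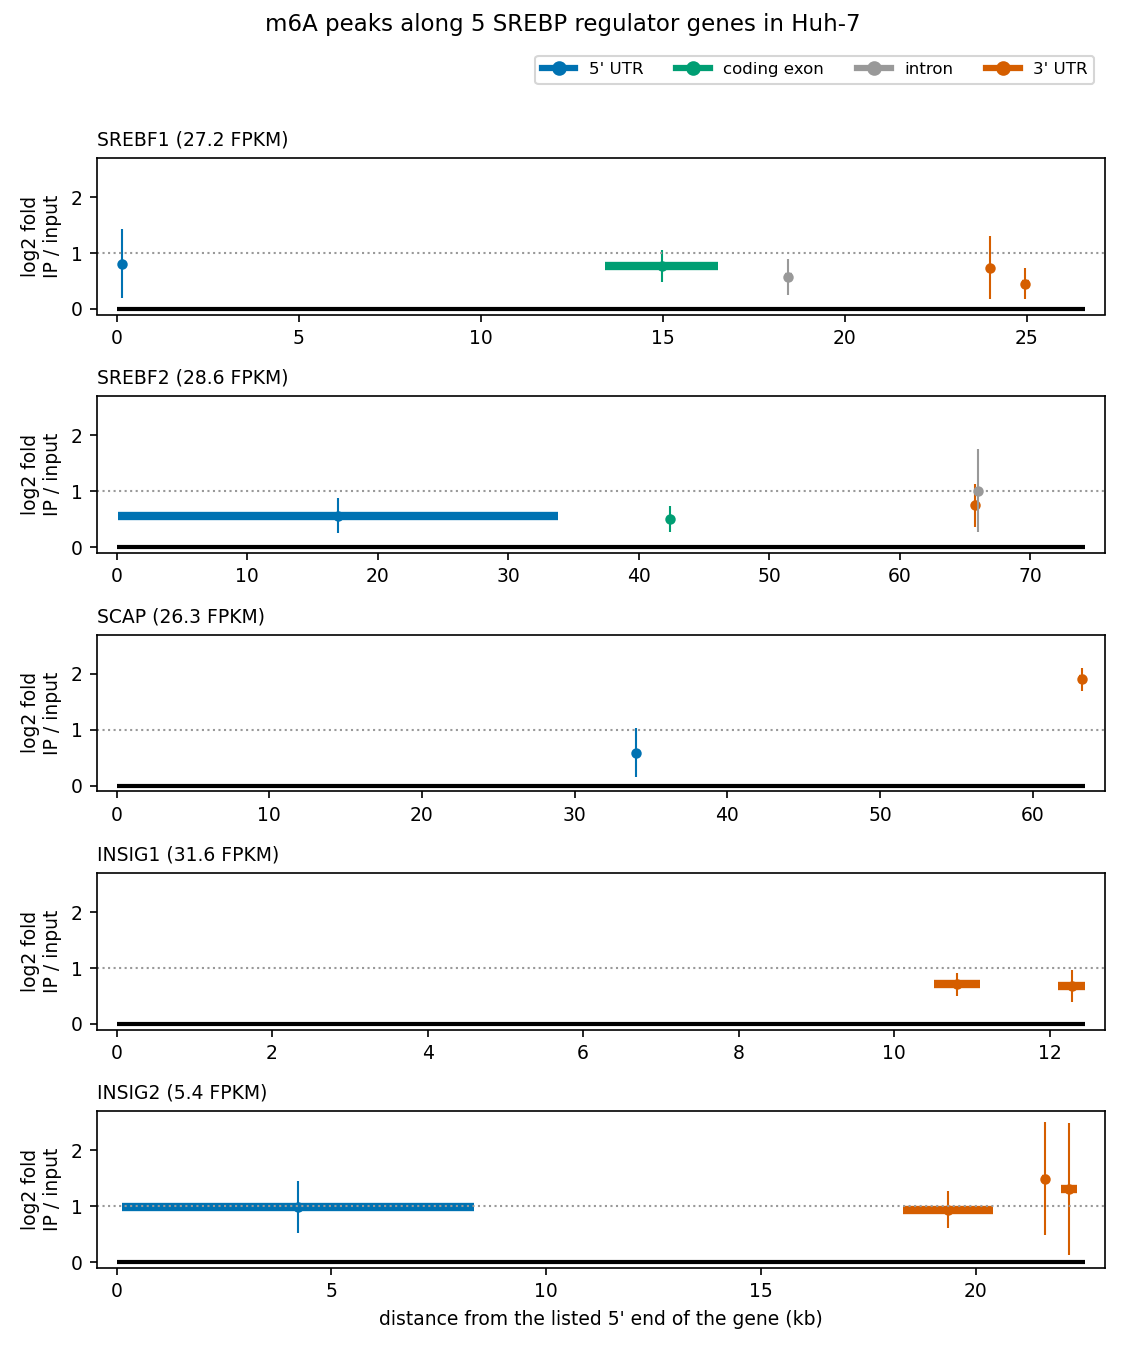
Each panel is 1 gene from its listed 5' end (left) to its 3' end (black line, kb), with peaks as bars at their log2 fold of IP over input (dots, midpoints, and vertical lines, approximate 95% intervals) coloured by the region the authors gave; the dotted line is 2-fold. The SCAP peak at the 3' end, at a log2 fold of 1.90, is the only one whose whole interval lies above the line, and the long bars of SREBF2 and INSIG2 cross introns.

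SREBF1, the source of SREBP-1a and SREBP-1c, had weak peaks spread over the gene (chromosome 17, 17810399 to 17837011, minus strand). From the 5' end, the first lay in the 5' UTR from 17836819 to 17836918, 93 nt from the listed start, at a log2 fold of 0.81 (interval 0.20 to 1.43, adjusted p 0.0169). The second was listed as coding exon and ran over 3103 nt, from 17820483 to 17823585, at 0.77 (0.47 to 1.06, adjusted p 1.4e-06). The third lay in an intron from 17818470 to 17818644 at 0.57 (0.24 to 0.90, adjusted p 0.0017). These peaks left the 3' part of the gene to a pair of short ones. The next, from 17812981 to 17813080, was assigned to the 3' UTR of transcript ENST00000478616 at 0.73 (0.17 to 1.30, adjusted p 0.0184). The last, from 17811948 to 17812147 in the 3' UTR of ENST00000261646, was the weakest of all 17 peaks at 0.45 (0.18 to 0.73, adjusted p 0.00333). No peak of SREBF1 reached 2-fold, and the intervals of all 5 overlapped one another. The one nearest the 3' end stopped 1549 nt before the listed end of the gene.

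SREBF2, which encodes SREBP-2, had no peak near its 3' end (chromosome 22, 41833079 to 41907307, plus strand). Its first peak began 100 nt from the listed start, in the 5' UTR, and ran from 41833179 to 41866925, which is 45.5% of the gene span, at a log2 fold of 0.57 (0.25 to 0.88, adjusted p 0.00132). Which exons inside that stretch carried the IP reads is not given. The second, in a coding exon from 41875372 to 41875646, stood at 0.51 (0.27 to 0.74, adjusted p 7.52e-05). The last pair were neighbours 25 nt apart. The upstream one, from 41898718 to 41898992, stood at 0.75 (0.36 to 1.13, adjusted p 0.000418) and was placed in the 3' UTR of ENST00000424354, a transcript of the nonsense-mediated decay class. The downstream one, from 41899018 to 41899142, was listed as intronic in ENST00000361204 at 1.01 (0.27 to 1.75, adjusted p 0.0139). These neighbours ended 8165 nt before the listed 3' end, so the 3' UTR label does not refer here to the end of the gene. SREBF2-AS1, an antisense RNA listed at only 0.0496 FPKM, had a peak on the minus strand from 41832965 to 41833489 at a log2 fold of 0.95 (adjusted p 1.34e-07). It began 114 nt upstream of the listed SREBF2 start and shared 311 nt with the first SREBF2 peak, so the gene those reads belong to is uncertain.

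SCAP, the sterol sensor and escort of the SREBPs, had the strongest peak of the 5 genes (chromosome 3, 47413681 to 47477126, minus strand). This peak, from 47413681 to 47414080, covered the last 400 nt of the gene and ended on its last listed base. Its log2 fold was 1.90, a fold of 3.74 (interval 3.25 to 4.32, adjusted p 9.88e-73), above 84.3% of peaks in coding genes at 1 FPKM or more. The authors placed it in the 3' UTR of ENST00000320017, a transcript of the nonsense-mediated decay class. The other SCAP peak lay in the 5' UTR from 47443067 to 47443191 at a log2 fold of 0.59 (0.16 to 1.02, adjusted p 0.0135), 33935 nt into the gene. Its interval lay wholly below that of the peak at the 3' end.

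INSIG1, the brake that is itself an SREBP target gene, had both peaks in the 3' UTR of ENST00000340368 and none elsewhere (chromosome 7, 155297776 to 155310235, plus strand). The first, from 155308286 to 155308885, stood at a log2 fold of 0.71 (0.50 to 0.92, adjusted p 7.37e-11). The second, from 155309886 to 155310235, ended on the last listed base of the gene and stood at 0.68 (0.39 to 0.97, adjusted p 1.58e-05). Both intervals ended below 2-fold. The 5' end of INSIG1 had no peak for 10510 nt.

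INSIG2, the second brake, which is not itself induced by SREBPs, had peaks at both ends (chromosome 2, 118088452 to 118110997, plus strand). Its 5' UTR peak ran from 118088585 to 118096760, 36.3% of the gene span, at a log2 fold of 0.98 (0.52 to 1.45, adjusted p 0.00011). The 3 peaks in the 3' UTR of ENST00000245787 followed. The first, from 118106746 to 118108847, stood at 0.94 (0.61 to 1.27, adjusted p 1.02e-07). The next, from 118109998 to 118110122, stood at 1.49 (0.48 to 2.50, adjusted p 0.0078). The last, from 118110423 to 118110797, stood at 1.31 (0.13 to 2.49, adjusted p 0.042) and ended 200 nt before the listed end. The 2 strongest INSIG2 peaks had the widest intervals of the 4, and all 4 intervals overlapped.

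Against all peaks, those of the 5 genes were mostly weak. Of the 17, 13 lay below the median log2 fold of peaks in coding genes at 1 FPKM or more (0.99), and their own median was 0.75. A fold of 2 or more was listed for 4 of the 17 peaks, against 56.4% of all peaks. None reached 4-fold, a limit for which the share of all peaks was not computed. The median fold was 2.14 over all peaks and 1.99 over peaks in coding genes at 1 FPKM or more. The 56.4% is therefore above the share for those coding genes. That share was not computed, nor was one for peaks of genes at like levels. SREBF1, SREBF2, SCAP and INSIG1 stood at 26.3 to 31.6 FPKM. A peak of 2-fold or more was less frequent among coding genes of 20 to 40 FPKM, 59.9% against 80.4% at 1 FPKM or more. An adjusted p under 0.001 was listed for 8 of 17, against 44.1% of all peaks, a share near the background. Of the 4 peaks at 2-fold or more, the interval of 1, the SCAP peak, began above 2-fold. Of the other 13, the intervals of 6 ended below 2-fold and those of 7 reached it.

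Counted per gene, SCAP, INSIG2 and SREBF2 (fold 2.02) had a peak of 2-fold or more, and SREBF1 (1.76) and INSIG1 (1.64) did not. That is 3 of 5, against 80.4% of coding genes at 1 FPKM or more. With an adjusted p under 0.001 as well, SCAP alone was left, 1 of 5 against 67.5%. Strong peaks are less frequent among abundant genes in these data, and 59.9% of coding genes of 20 to 40 FPKM had a peak of 2-fold or more. In the high group of 4 regulators SCAP and SREBF2 did. The share was 86.1% among coding genes of 4 to 7 FPKM, the class of INSIG2. The strongest peak lay below the coding median of 1.76 in 4 of the 5 genes, at a log2 fold of 0.71 for INSIG1, 0.81 for SREBF1, 1.01 for SREBF2 and 1.49 for INSIG2. The median strongest peak was 1.21 in the class of 20 to 40 FPKM, above 3 of the 4 regulators at that level, and 1.82 in the class of 4 to 7 FPKM. Among the strongest peaks, the interval of SCAP was apart from those of INSIG1 and SREBF1, and all other pairs overlapped.

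**Figure D2:**
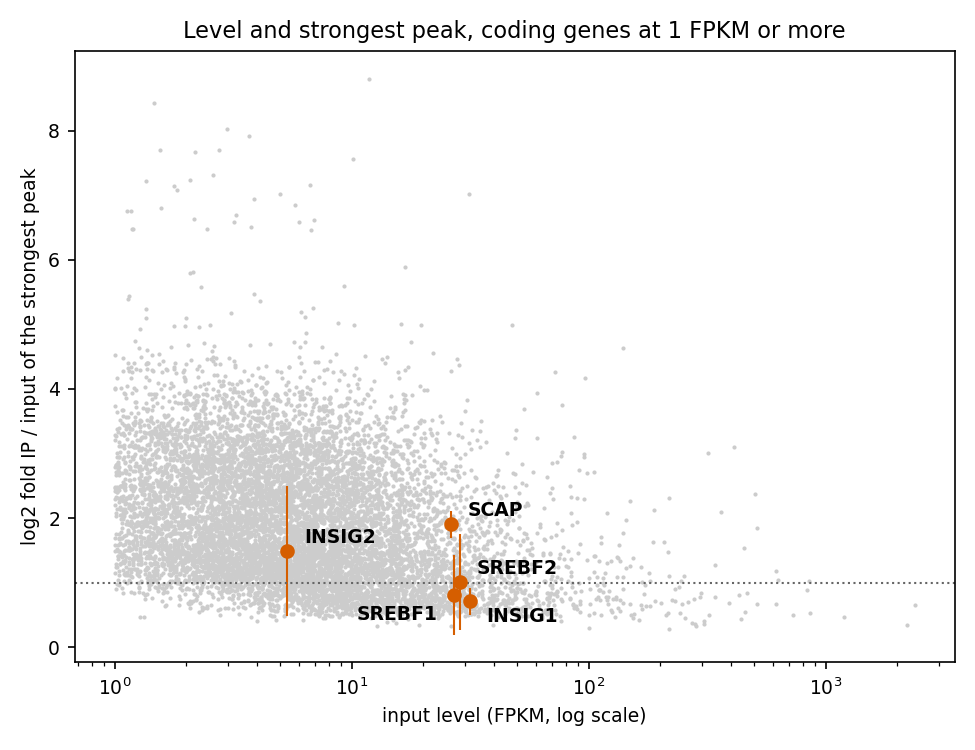
Grey points are the protein-coding genes at 1 FPKM or more with a peak, by input level (x, FPKM on a log scale) and log2 fold of their strongest peak (y); orange points are the 5 regulators with approximate 95% intervals, and the dotted line is 2-fold. SCAP, at 26.3 FPKM and 1.90, stands above SREBF2, SREBF1 and INSIG1 at like levels, and INSIG2 lies at 5.36 FPKM.

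By region, 9 of the 17 peaks (52.9%) were listed in 3' UTRs, 4 in 5' UTRs, 2 in coding exons and 2 in introns. Over all listed peaks the 3' UTR held 49.2%, the 5' UTR 12.3%, coding exons 20.7% and introns 5.93%. Over peaks in coding genes at 1 FPKM or more these shares were 55.5%, 14.1%, 23.4% and 6.90%, so the 3' UTR share of the 17 lay between both backgrounds. Counted per gene, each of the 5 had a 3' UTR peak, as did 88.0% of coding genes at 1 FPKM or more. A 5' UTR peak was listed for 4 of the 5, INSIG1 being the exception, against 42.3% of those genes. By position, SCAP, INSIG1 and INSIG2 had a peak within 1000 nt of the listed 3' end, as 63.0% of coding genes at 1 FPKM or more did. SREBF1, SREBF2 and INSIG2 had one within 1000 nt of the listed 5' end, against 4214 of 10548 coding genes at that level. SREBF1 and SREBF2 had no peak within that distance of the 3' end, where SCAP and INSIG1 had one that ended on the last listed base, as 21.4% of coding genes did.

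The strongest peaks of the genes that move, cut and degrade the SREBPs ran from a log2 fold of 0.63 to 4.02. Of 20 listed by name, 19 were at 1 FPKM or more, all 19 had a peak and 16 had one of 2-fold or more, with a median strongest log2 fold of 1.93 beside 1.76 for coding genes. That share of 84.2%, at a median level of 8.20 FPKM, was near the 80.4% of coding genes at 1 FPKM or more. FBXW7, the ubiquitin ligase subunit that marks nuclear SREBP for destruction, had 4.02 at 3.18 FPKM, and PAQR3, a Golgi anchor of SCAP, had 3.68 at 1.35 FPKM. SEC23B (0.63) and SEC24D (0.70), coat proteins of the vesicles that leave the endoplasmic reticulum, were lowest. PCK1 was not listed.

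Among 25 SREBP-2 target genes of cholesterol synthesis and uptake, all had a peak and 18 had one of 2-fold or more, with a median of 1.66. The share of 72.0% lay between the 80.4% of coding genes at 1 FPKM or more and the 59.9% of those of 20 to 40 FPKM, a class that holds the list's median level of 25.5 FPKM. MSMO1 (2.99) and NSDHL (2.95), which strip methyl groups from sterol precursors, were highest. EBP (0.42 at 163 FPKM), a sterol isomerase, and CYP51A1 (0.46 at 63.4 FPKM), the lanosterol demethylase, were lowest. In 18 fatty acid synthesis genes, 17 were at 1 FPKM or more, all with a peak and 12 with one of 2-fold or more, with a median of 1.51. Their share of 70.6%, at a median level of 21.1 FPKM, lay between the same shares of 80.4% and 59.9%. ACACA (2.88) and ACACB (2.78), which make malonyl-CoA, were highest, SCD (0.44 at 439 FPKM), the stearoyl-CoA desaturase, and ACLY (0.62), which makes cytosolic acetyl-CoA, were lowest, and THRSP was not listed.

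All 16 genes listed as upstream of SREBF1 transcription had a peak, as did 96.2% of coding genes, and 15 (93.8%) had one of 2-fold or more, against 80.4%, with an exact binomial 95% interval of 69.8 to 99.8% that covers counting error only. Their median was 1.80 beside 1.76. RPTOR (3.62), the scaffold of mTOR complex 1, and the repressor BHLHE40 (3.22) were highest. CRTC2 (0.85), a coactivator, and NFYB (1.01), a subunit of NF-Y, were lowest. The strongest peaks of PAQR3 and RPTOR overlapped a peak on the other strand, so their gene is uncertain.

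**Figure D3:**
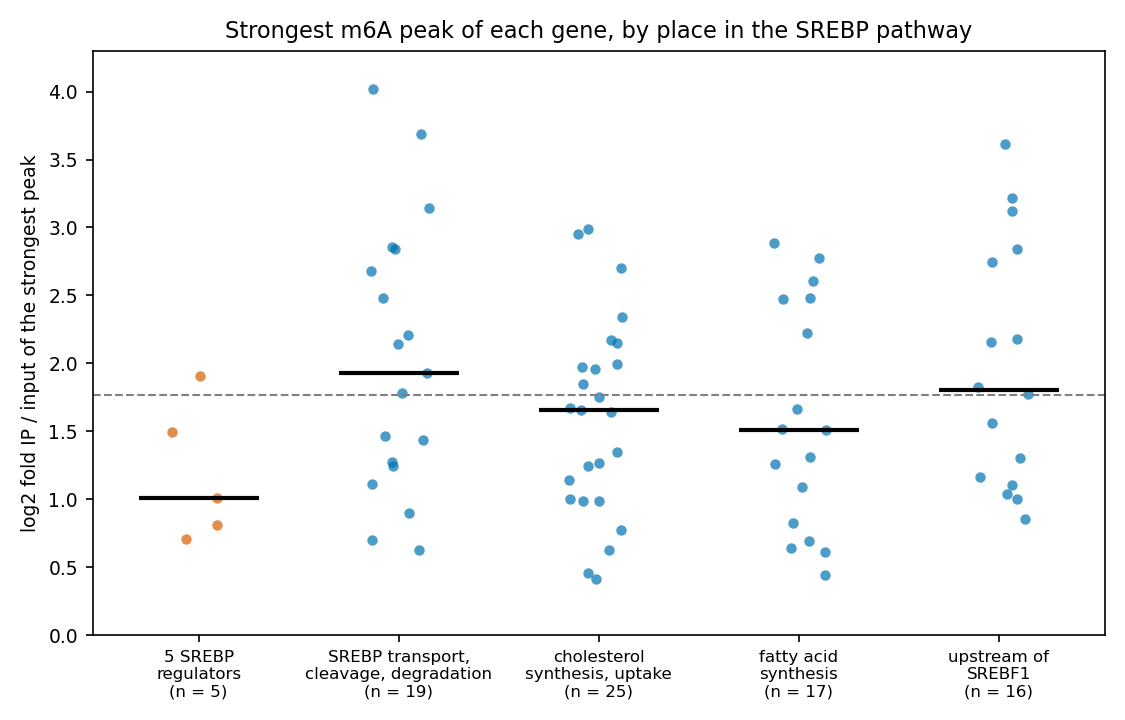
Each point is 1 gene at 1 FPKM or more with a peak, by the log2 fold of its strongest peak (y), in 5 classes of the SREBP pathway (x, number of genes below); bars are class medians and the dashed line is the median of coding genes, 1.76. The regulators have a median of 1.01, and the other classes have medians between 1.51 and 1.93. The classes are not matched for level. All regulators but INSIG2 stand at 26.3 to 31.6 FPKM, and the coding median at 20 to 40 FPKM is 1.21. The median levels of the other classes run from 8.20 to 25.5 FPKM.

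Genes most like each regulator were sought over level, number of peaks and strongest peak, each scaled by its SD over 10150 coding genes with a peak, in the 1 pair of libraries. For SREBF1 these were TMEM123 and EPRS1, at distances of 0.0270 and 0.0454 SD, and for SREBF2 they were GOT2 and LSM4 (0.0383 and 0.0805). POP7 and CTDSP2 were nearest to SCAP (0.0547 and 0.0646), ASF1B and TYMS to INSIG1 (0.00464 and 0.0356), and LRRC41 and UIMC1 to INSIG2 (0.0131 and 0.0156).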

How the data were processed

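Ribosomal RNA was removed from total RNA, fragments were incubated with an m6A antibody, and strand-marked libraries were made, per the labels' protocols. The submitters' processing notes name edgeR, StringTie, HOMER, HISAT2, FastQC and fastp with no role for each. Not given in the sources used here are the peak caller's settings, the genome build and the scaling of the IP. The deposited peak table gives the authors' log2 fold of IP over input, p-value and adjusted p-value for each peak, limited by the unadjusted p (largest 0.0500). The deposited gene table gives the authors' FPKM of the input library. Depth is unknown, so no counting interval can be given for a level.

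Deposited peak starts count from 0, since 3007 peaks start 1 base before their listed gene start and 0 on it; 1 was added, so positions count from 1. Peaks were joined by gene name and ID. Biotypes came from the RefSeq table (GRCh38.p14) by symbol or synonym (77.7% of genes); the spans of all 5 regulators overlapped those of that table. No test of a condition was made: the result is shares, ranks and intervals (pandas 2.3.3, scipy 1.17.1). The calculations of intervals, strand overlap and positions were checked on simulated data. The simulated p came from the same normal formula as the intervals, so that check cannot tell how well the intervals hold for the authors' p. Named pathway genes are the 2 with the strongest and the 2 with the weakest peak of each list, by the log2 fold. The members and lists were chosen with earlier results of these data known, and the level classes of 20 to 40 and 4 to 7 FPKM after their values were seen.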

Additional observations from a re-analysis of the deposited data

How the results depend on the processing

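The 17 peaks were 17 at an adjusted p under 0.05, 8 under 0.001 and 3 under 1e-06, with 13 reaching 1.5-fold and 0 reaching 4-fold. The count of genes with a 2-fold peak, 3, fell to 1 at either stricter limit on p. At 0.001 the share of coding genes at 1 FPKM or more was 67.5%. Peaks of 1.5-fold were found in 5 genes and of 4-fold in 0, and the shares of coding genes at these limits were not computed. The 3' UTR share of 52.9% was 100% at an adjusted p under 1e-06, over 3 peaks, and 52.9% to 62.5% under the other settings. The median level percentile of 91.9 was 96.1 among all listed genes and 85.1 with a minimum of 5 FPKM for coding genes. By the midpoint 6 of the 17 peaks (35.3%) lay in the last 10% of the gene, against 35.7% of peaks in coding genes, and by the 5' edge 5 (29.4%), against 32.5%. Leaving out peaks that overlap the other strand took 1 SREBF2 peak away, and assignment by span and strand gave the same counts. Shares of the 4 pathway lists with a 2-fold peak stayed within their exact intervals under other level minimums and an adjusted p under 0.001. Of 35 peak counts of single genes, 19 stayed within 1.5 times. Most of these come from 3 settings that could hardly move a count: the limit of 0.05, the other-strand overlap and the assignment by span. Under 0.001 only the count of INSIG1 stayed, and at 1.5-fold those of SCAP, INSIG1 and INSIG2. Under 1e-06 and at 4-fold none stayed. Reading the p as one-sided, chosen after seeing the data, kept 1 peak wholly above and 6 wholly below 2-fold. The lower limit of the last INSIG2 peak then fell to a log2 fold of -0.0568, so its interval included no enrichment. The peak table holds no summit, so none was tried. No paired analysis was possible because each kind of library has 1 sample and the result comes from no test.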

Other observations

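Other listed genes overlap the span of SREBF1. RAI1, a neighbour on the plus strand at 6.76 FPKM, ends inside the span of SREBF1 and shares 1055 nt with it. Its last peak, from 17810021 to 17810770 at a log2 fold of 0.97 (adjusted p 1.78e-07), touched the span of SREBF1 but none of the SREBF1 peaks. MIR6777, a microRNA gene of 66 nt inside SREBF1 on the same strand, was listed at 7.05 FPKM with no peak. The shortest peak in the list is 100 nt, longer than that gene, and reads of the host cannot be told apart from its own.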
